A study of Mus musculus with 6 samples.

Results

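The Krüppel-like factors are transcription factors that share a block of zinc fingers at the carboxyl end and bind CACCC elements and GC-rich DNA. Their transcripts were measured in the lungs of Igf1-/- and Igf1+/+ mouse embryos on expression arrays. The members were taken by name as 10 Klf genes, Klf2, Klf3, Klf4, Klf5, Klf6, Klf7, Klf9, Klf10, Klf13 and Klf15, and a probe set counted as a member when the array annotation gave it exactly 1 symbol and that symbol was one of these. This gave 27 probe sets of 22626 for mouse genes, and 10 genes of 12393 with a symbol of their own. The members were chosen from the genotype difference of these same 6 arrays, whose results were already known, so their genotype differences are a description and carry no test. The study asked which genes of the fetal lung depend on IGF1, a growth factor of the insulin family. There were 3 arrays from Igf1-/- embryos and 3 from Igf1+/+ embryos, all at embryonic day 18.5, shortly before birth. The methods state that pups of this age were delivered by caesarean section. They were helped to breathe for a short time before the lungs were dissected. Both genotypes came from matings of heterozygous mice on a C57BL/6J background, and the homozygous mutants lacked the gene in every tissue throughout gestation. The labels speak of lungs pooled for RNA and the methods of separate RNA samples, so it is unsettled whether an array stands for 1 animal or for several.

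Members of this family act as activators or repressors, and several compete for the same sites in DNA. In blood vessels, laminar flow induces Klf2 and Klf4 through a kinase cascade of MEK5 and ERK5 that ends on MEF2 factors, and both proteins keep the endothelium quiescent. Klf4 and Klf5 are also known from epithelia, where Klf4 goes with differentiation and Klf5 with proliferation, and Klf5 takes part in maturation of the respiratory epithelium before birth. Klf2, Klf4, Klf6 and Klf10 respond quickly to growth factors and other stimuli, whereas Klf9 and Klf15 are induced by glucocorticoid hormones.

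The promoters of Klf2, Klf4 and Klf6 are shown because these 3 genes had the lowest values in Igf1-/- lungs relative to Igf1+/+ lungs. Each window runs 5′ to 3′ along the strand of the gene, from 250 bases before the annotated start to 50 bases after it, in the RefSeq annotation of GRCm38.p6. Capitals mark matches, on either strand, to CACCC, to the GC box GGGCGG, to the CCAAT box and to the MEF2 site. The Klf2 window lies at chr8:72318812-72319111 on the plus strand, the Klf4 window at chr4:55532426-55532725 on the minus strand and the Klf6 window at chr13:5861239-5861538 on the plus strand.
Klf2: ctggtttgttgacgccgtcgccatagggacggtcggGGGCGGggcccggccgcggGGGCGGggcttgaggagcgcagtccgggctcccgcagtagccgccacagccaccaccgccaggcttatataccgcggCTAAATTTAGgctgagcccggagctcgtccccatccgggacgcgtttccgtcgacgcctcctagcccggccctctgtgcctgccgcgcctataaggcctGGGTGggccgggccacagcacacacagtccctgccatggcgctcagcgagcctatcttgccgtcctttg
Klf4: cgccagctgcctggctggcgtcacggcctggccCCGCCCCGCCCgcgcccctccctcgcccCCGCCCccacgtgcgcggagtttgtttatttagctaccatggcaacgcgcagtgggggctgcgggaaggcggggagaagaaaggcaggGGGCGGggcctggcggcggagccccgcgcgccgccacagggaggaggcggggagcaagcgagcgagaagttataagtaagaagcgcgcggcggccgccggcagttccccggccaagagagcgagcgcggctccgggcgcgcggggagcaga
Klf6: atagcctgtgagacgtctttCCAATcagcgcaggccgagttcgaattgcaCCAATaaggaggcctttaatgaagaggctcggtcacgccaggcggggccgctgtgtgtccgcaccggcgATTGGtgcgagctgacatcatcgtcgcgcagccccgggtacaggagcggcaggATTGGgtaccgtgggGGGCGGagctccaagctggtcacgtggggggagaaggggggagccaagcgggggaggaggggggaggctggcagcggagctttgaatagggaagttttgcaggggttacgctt

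The Klf2 window held 2 GC boxes, 1 CACCC element read on the opposite strand and 1 MEF2 match, CTAAATTTAG, at positions −118 to −109 from the start. The Klf4 window held 4 GC boxes, of which the pair farthest upstream shared a base, and no CACCC element. The Klf6 window held 1 GC box and 4 CCAAT boxes. Promoter windows were found for 8 of the 10 genes. A GC box stood in 7 of these 8, against 35.7% of 32851 promoters of the same length, and the GC content of the 8 ran from 58.3% to 76.7% beside a median of 52.7% over all promoters. CACCC, the motif that the family itself binds, stood in 6 of 8 against 57.5% of all promoters, and a CCAAT box in 4 of 8 against 37.4%. The short form TGACG of the cyclic AMP response element stood in 6 of 8 against 20.8%, whereas the full TGACGTCA stood in 0 of 8 against 1.79%. The MEF2 site was in 1 of 8, Klf2, against 3.19% of promoters. An AP-1 site, TGANTCA, was in 1 of 8, Klf9, against 7.81%. The CArG box, bound by serum response factor, was in 0 of 8 against 1.63%, and TATAAA was in 0 of 8 against 13.6%. These matches are descriptions of letters in a short GC-rich window and were not tested.

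All values below are log2 expression values made by RMA, and a difference is the Igf1-/- mean minus the Igf1+/+ mean with its moderated standard error (SE, n = 3 arrays per genotype). The 6 arrays were alike as wholes, with medians from 6.85 to 6.89 and pairwise correlations from 0.992 to 0.996. The 3 probe sets for Igf1 had lower means in Igf1-/- lungs, by 0.42 to 0.58 on the log2 scale, and the genotypes did not overlap at 1 of them. The sources do not say where these probe sets lie relative to the inactivated part of the gene, so they do not check the labels.

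Of the 27 Klf probe sets, 23 had a lower mean in Igf1-/- lungs and 4 a higher mean, where 41.8% of all mouse probe sets had a lower mean. The median difference was −0.22 over the member probe sets and 0.03 over all probe sets. At 6 probe sets, those of Klf2, Klf4 and Klf6, every Igf1-/- array lay below every Igf1+/+ array, which held for 7.26% of all probe sets. At 1 probe set, of Klf3, the order was the reverse, which held for 10.8% of all. The genotypes overlapped at the other 20. In the fit over all probe sets, 3 member probe sets, 1 of Klf2 and 2 of Klf6, were past an adjusted p of 0.10 with lower values, beside 0.393% of all, and 6 were past 0.20, beside 1.62%. Counted by gene, 2 of 10 members had a probe set past 0.10 with lower values, beside 0.573% of genes, and 0 of 10 with higher values, beside 0.242%. The comparison that chose the members gave these counts, and nothing is read from them about the family. In bulk lung RNA, fewer cells of a type and less RNA per cell cannot be told apart.

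**Figure D1:**
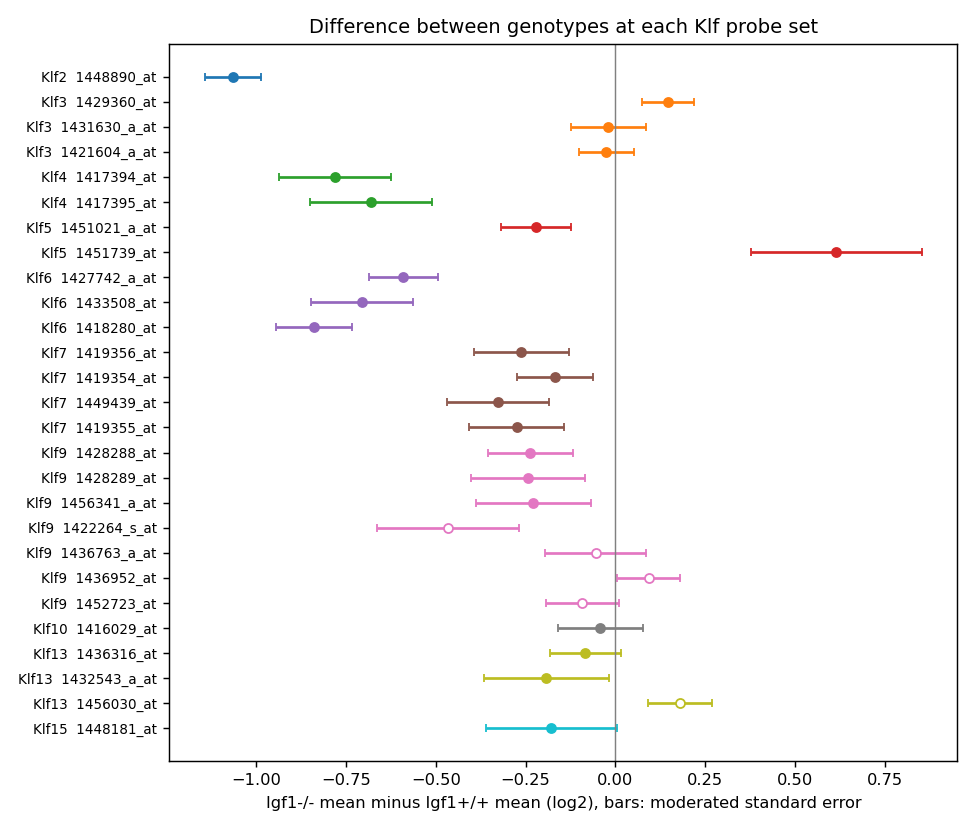
The horizontal axis gives the Igf1-/- mean minus the Igf1+/+ mean on the log2 scale for each of the 27 Klf probe sets, with bars for the moderated standard error, and open circles mark the 5 probe sets whose mean lay below the median of all probe sets. Klf2, Klf4 and Klf6 lie between −1.07 and −0.59, and the second Klf5 probe set lies at 0.62.

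Klf2, which the endothelium and resting T cells need and whose loss in mice disturbs late lung development, had the largest difference among the members. At its only probe set (1448890_at) the values were 9.36, 9.33 and 9.23 in Igf1-/- lungs and 10.29, 10.44 and 10.37 in Igf1+/+ lungs. The lowest Igf1+/+ array thus lay well above the highest Igf1-/- array, and each genotype was tight, with SDs of 0.07 and 0.07. The difference was −1.07 (SE 0.08), a level in Igf1+/+ lungs 2.09 times that in Igf1-/- lungs. Leaving out each array in turn gave differences from −1.10 to −1.03.

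Klf6, a widely expressed factor that is induced by injury and by growth stimuli, was lower at all of its 3 probe sets. At 1427742_a_at the values were 8.69, 8.73 and 8.59 in Igf1-/- lungs and 9.40, 9.29 and 9.08 in Igf1+/+ lungs, a difference of −0.59 (SE 0.10). At 1433508_at they were 8.83, 8.43 and 8.52 against 9.54, 9.31 and 9.05, a difference of −0.71 (SE 0.14). Replicate 3 was the lowest Igf1+/+ array at both of these probe sets. At the dimmer 1418280_at the values were 6.71, 6.77 and 6.44 against 7.52, 7.36 and 7.57, a difference of −0.84 (SE 0.11), and here Igf1+/+ replicate 3 was the highest. The genotypes did not overlap at any of the 3 probe sets, and the levels in Igf1+/+ lungs were 1.51 to 1.79 times those in Igf1-/- lungs.

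Klf4, which acts in the endothelium beside Klf2 and in differentiating epithelium, was measured by 2 probe sets. At 1417394_at the values were 9.56, 9.38 and 9.28 in Igf1-/- lungs and 10.32, 10.43 and 9.81 in Igf1+/+ lungs, a difference of −0.78 (SE 0.16). At 1417395_at they were 7.62, 7.53 and 7.58 against 8.28, 8.64 and 7.84, a difference of −0.68 (SE 0.17). The genotypes did not overlap at either probe set, but the Igf1+/+ arrays were spread out, with SDs of 0.33 and 0.40 against 0.14 and 0.05 in Igf1-/- lungs. Igf1+/+ replicate 3 was the low array at both, and without it the differences were −0.97 and −0.89.

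**Figure D2:**
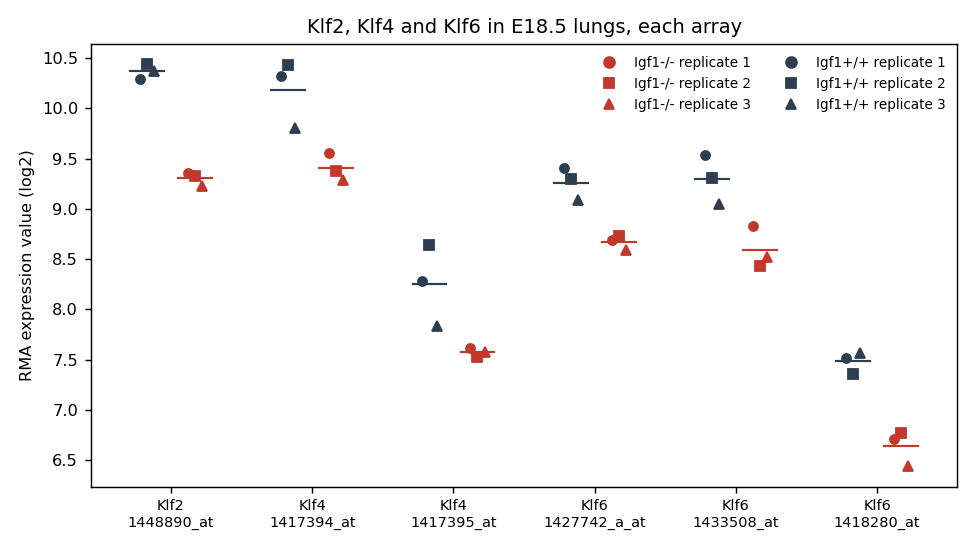
Each point is the log2 RMA value of 1 array at the 6 probe sets of Klf2, Klf4 and Klf6, with circles, squares and triangles for replicates 1, 2 and 3 of each genotype and a line at the mean of 3 arrays. The Igf1-/- arrays lie below the Igf1+/+ arrays at each of the 6 probe sets, and Igf1+/+ replicate 3 is the lowest Igf1+/+ array at both Klf4 probe sets.

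Klf7, known for its part in the outgrowth of axons, had lower means at all of its 4 probe sets, with genotypes that overlapped at each. At the brightest, 1419356_at, the values were 9.42, 9.28 and 9.03 in Igf1-/- lungs and 9.68, 9.58 and 9.26 in Igf1+/+ lungs, a difference of −0.26 (SE 0.13). The other 3 probe sets gave −0.17 (SE 0.11), −0.27 (SE 0.13) and −0.33 (SE 0.14). Igf1+/+ replicate 3 was the lowest Igf1+/+ array at each of the 4.

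Klf10, a repressor first known as an early gene of the TGF-beta response, had overlapping values in the genotypes. Its values at 1416029_at were 8.18, 8.44 and 8.22 in Igf1-/- lungs and 8.55, 8.20 and 8.20 in Igf1+/+ lungs, a difference of −0.04 (SE 0.12). The 1 high Igf1+/+ array was replicate 1, and the other 2 lay among the Igf1-/- arrays.

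The probe sets of Klf5, the factor of proliferating and maturing epithelium, disagreed with each other. At the brighter 1451021_a_at the values were 9.53, 9.77 and 9.68 in Igf1-/- lungs and 9.92, 9.73 and 9.99 in Igf1+/+ lungs, a difference of −0.22 (SE 0.10). At 1451739_at they were 8.03, 8.43 and 8.03 against 7.60, 8.06 and 6.99, a difference of 0.62 (SE 0.24). The genotypes overlapped at both. At the second probe set the Igf1+/+ arrays spanned over 1 log2 unit, and the difference was 0.33 without Igf1+/+ replicate 3. The values therefore give no single direction for Klf5.

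Klf9 and Klf15 are targets of the glucocorticoid receptor, and Klf15 controls amino acid and glucose metabolism. At the brightest Klf9 probe set, 1428288_at, the values were 9.91, 10.24 and 9.93 in Igf1-/- lungs and 10.43, 10.28 and 10.09 in Igf1+/+ lungs, a difference of −0.24 (SE 0.12). The other 2 bright Klf9 probe sets gave −0.24 (SE 0.16) and −0.23 (SE 0.16). The 4 dim Klf9 probe sets ranged from −0.47 to 0.09, and the lowest of these, 1422264_s_at, is of a type that may detect more than 1 gene. At Klf15 the values were 8.44, 9.14 and 8.56 against 9.14, 8.80 and 8.72, a difference of −0.18 (SE 0.18). Igf1-/- replicate 2 was the highest Igf1-/- array at Klf15 and at the 3 bright Klf9 probe sets. Without it the Klf15 difference was −0.39, and without Igf1-/- replicate 1 it was −0.04, so single arrays set its size.

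Klf3, which represses transcription through the corepressor CtBP, was the only member whose brightest probe set had a higher mean in Igf1-/- lungs. At 1429360_at the values were 8.92, 8.90 and 9.02 in Igf1-/- lungs and 8.77, 8.79 and 8.84 in Igf1+/+ lungs, a difference of 0.15 (SE 0.07) with genotypes that did not overlap. The other 2 Klf3 probe sets gave −0.02 (SE 0.10) and −0.03 (SE 0.08). Klf13, a factor known from T lymphocytes, gave −0.08 (SE 0.10) at its brightest probe set, with values of 8.96, 9.18 and 9.05 against 9.27, 9.19 and 8.97. Its other 2 probe sets gave −0.19 (SE 0.17) and 0.18 (SE 0.09), and the genotypes overlapped at all 3.

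The members also varied among arrays of the same genotype, which the choice of members did not use. Deviations from the genotype mean were taken at the 22 member probe sets brighter than the median of all probe sets, 6.88. Igf1+/+ replicate 3 was the lowest of its genotype at 14 of the 22 (63.6%), where it was the lowest at 38.0% of 11313 bright probe sets. Igf1-/- replicate 2 was the highest of its genotype at 13 (59.1%), against 37.2% of all bright probe sets. Several of these probe sets detect the same gene, so they do not count as separate measurements. The median deviation of the member probe sets was −0.17 in Igf1+/+ replicate 3 and 0.13 in Igf1+/+ replicate 1, while the median over all bright probe sets was 0.00 in both. In Igf1-/- lungs it was −0.03, 0.10 and −0.07 in replicates 1, 2 and 3.

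Across the 6 arrays, each taken as its deviation from the genotype mean, several of the brightest probe sets varied together. Klf9 went with Klf15 (r = 0.95), Klf13 (r = 0.94) and Klf10 (r = 0.88). Klf7 went with Klf6 (r = 0.88) and Klf4 (r = 0.87), and Klf4 with Klf6 (r = 0.81). Klf6 went as closely with Klf13 (r = 0.84) and Klf9 (r = 0.82) and also with Klf10 (r = 0.72), so these genes did not divide into separate sets. Klf3 went the other way from Klf7 (r = −0.87) and Klf6 (r = −0.78), and Klf5 from Klf4 (r = −0.75). Klf2, whose deviations were small, had correlations from −0.54 to 0.33 with the other members. These are descriptions over 6 points that share their arrays and their normalization. The deviations within a genotype cancel out, so the 6 points are not all free to vary. Most pairs named were picked for strong correlations among all pairs, and the share of other probe sets that reach them was not taken.

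**Figure D3:**
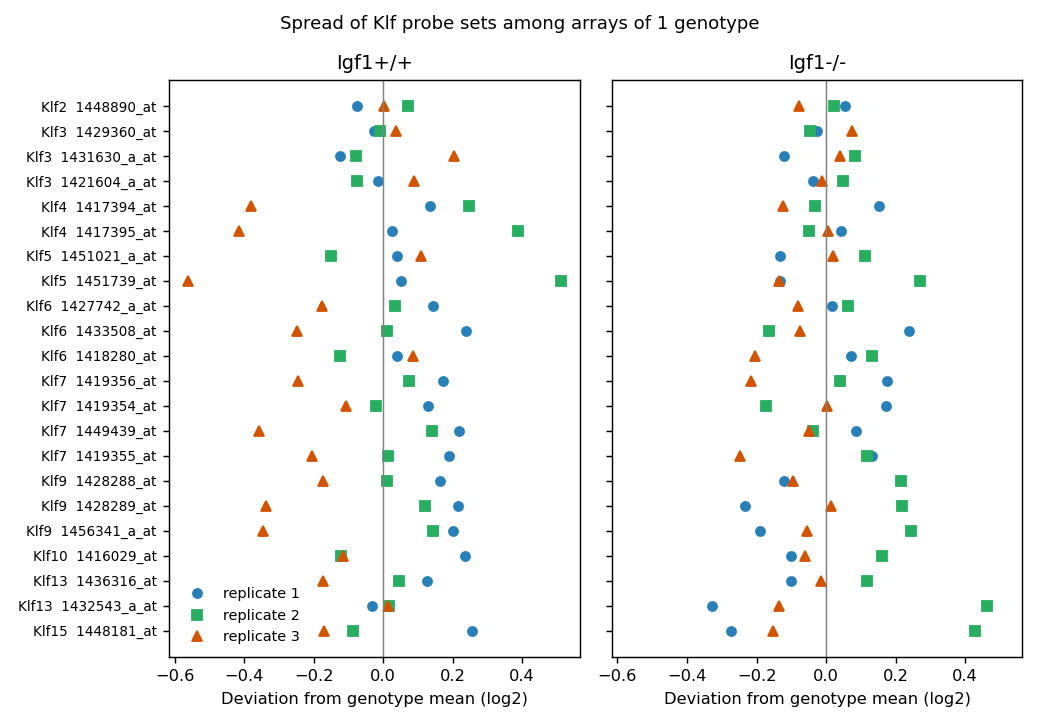
The horizontal axis gives the deviation of each array from the mean of its genotype on the log2 scale at the 22 bright Klf probe sets, with Igf1+/+ arrays on the left and Igf1-/- arrays on the right. Igf1+/+ replicate 3 (triangles, left) is the lowest of its genotype at 14 of 22 and Igf1-/- replicate 2 (squares, right) the highest of its genotype at 13 of 22.

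Markers of liver and heart also differed among these arrays. The summed linear level of 5 liver markers was 2945 in Igf1-/- replicate 2 and 224 to 728 in the other 5 arrays. That of 6 heart markers was 9256 in Igf1-/- replicate 3 and 3350 to 4136 in the other 5. The markers with the highest means were Alb and Apoa2 for liver, with genotype differences of 0.84 and 0.35, and Myl7 and Actc1 for heart, with 0.48 and 0.38. In all, 0 markers of either list passed in limma or had an unadjusted p under 0.05. Igf1+/+ replicate 3, which was the lowest of its genotype at 14 of the 22 bright Klf probe sets and the highest at 5, had the lowest heart sum of the 6 arrays, 3350, and the second highest liver sum, 728. The source of these marker transcripts and their part in the array deviations of the Klf genes were not tested.

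The wider family and the closely related SP factors, which bind the same GC boxes, showed no called change. Of 7 Klf genes outside the members, 4 were measured, Klf1, Klf12, Klf16 and Klf17, all with mean values from 4.44 to 5.97 below the array median, and their differences ran from −0.06 to 0.14 (Klf1 0.14, Klf16 −0.01), with 0 called in limma and 0 at an unadjusted p under 0.05. Of 8 SP genes, 6 were measured, 3 lower and 3 higher, and the limma fit called 0 of them, with 1 at an unadjusted p under 0.05. Sp1, which binds the GC boxes of many widely expressed genes, gave 0.12 (adjusted p = 0.548 in limma), and Sp3 gave −0.08 (adjusted p = 0.798 in limma).

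The kinase cascade that induces Klf2 and Klf4 held no gene whose RNA was called as changed. RNA values do not measure the activity of kinases, which was not tested. Of 12 genes of the MEK5, ERK5 and MEF2 cascade and of the cerebral cavernous malformation proteins that hold it in check, 11 were measured, and 8 were lower and 3 higher with a median of −0.08. In limma 0 of the 11 passed, and 2 had an unadjusted p under 0.05. Mef2a, one of the factors at the end of the cascade, gave 0.02 (adjusted p = 0.939 in limma). Pdcd10, which codes for a cavernous malformation protein, gave −0.28 (SE 0.08, adjusted p = 0.208 in limma). Krit1, named here after its value was seen, codes for another of these proteins and gave −0.51 (SE 0.15, adjusted p = 0.224 in limma).

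Among 12 cofactors and ubiquitin ligases that act with or on the family, 10 were measured, and 1 fell. This was Wwp1, a ligase that marks Klf2 and Klf5 for degradation, with −0.56 (SE 0.08, adjusted p = 0.0425 in limma) at 1 of its 3 probe sets. At its brightest probe set it gave −0.30 (SE 0.09, adjusted p = 0.231). Ctbp1, the corepressor that Klf3 recruits, gave −0.07, and Hdac1, a histone deacetylase of corepressor complexes, gave 0.17. Of the 10, 2 had an unadjusted p under 0.05 in limma.

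The genes that Klf2 and Klf4 are known to induce in endothelium and lymphocytes were divided between lower and higher means. Of 14 such genes, 13 were measured, 7 lower and 6 higher with a median of −0.02, and 0 passed in limma. In limma 2, Plat and S1pr1, had an unadjusted p under 0.05, and both were lower. At the brightest probe sets the genotypes did not overlap at 3 genes with lower and 1 with higher values. Cav1, the main caveolar protein, gave −0.17 (adjusted p = 0.427 in limma), and Ramp2, a part of the adrenomedullin receptor, gave −0.15 (adjusted p = 0.531 in limma). Plat, the tissue plasminogen activator, named after its value was seen, gave −0.55 (SE 0.11, adjusted p = 0.103 in limma). Nos3, the endothelial nitric oxide synthase, also named so, gave 0.08 (SE 0.10). S1pr1, also named so, gave −0.40 (SE 0.13, adjusted p = 0.288 in limma). The summed linear level of the 13 was 9248 to 10248 in Igf1-/- lungs and 10580 to 11294 in Igf1+/+ lungs, without overlap. Cav1 had the highest mean in this sum.

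Of 9 genes that Klf2 and Klf4 are known to repress, 8 were measured, 4 lower and 4 higher with a median of 0.00, and 2 fell. They were Icam1, an adhesion molecule for leukocytes (−0.54, SE 0.09, adjusted p = 0.0665 in limma), and F3, tissue factor (−0.87, SE 0.16, adjusted p = 0.0896 in limma). Both are also expressed in lung epithelium, and the cells in which their RNA was lower were not tested. Of the 8 measured, 3 had an unadjusted p under 0.05 in limma.

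Of 12 glucocorticoid response genes, a list that fits the hormone-induced members Klf9 and Klf15, all were measured, 9 lower and 3 higher with a median of −0.14. Dusp1 was the 1 gene that passed, and it fell (−1.61, SE 0.16, adjusted p = 0.00763 in limma), and it also belongs to the immediate-early list. Of the 12, 5 had an unadjusted p under 0.05 in limma. Cebpd, a transcription factor induced by the hormone in lung, gave −0.19, and Errfi1, an inhibitor of the EGF receptor, gave −0.28 (adjusted p = 0.233 in limma).

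The immediate-early genes, which growth factors and other stimuli switch on within minutes without new protein, held most of the called list genes. All 21 of the list were measured, 16 were lower and 5 higher with a median of −0.72, and 12 fell at an adjusted p under 0.10 in limma, while 0 rose. Fos, a subunit of AP-1, had values of 8.46, 8.08 and 8.09 in Igf1-/- lungs and 11.54, 12.15 and 10.90 in Igf1+/+ lungs, a difference of −3.32 (SE 0.27, adjusted p = 0.00179). Egr1, a zinc finger factor that binds GC-rich DNA, had 7.73, 8.03 and 8.24 against 10.35, 10.99 and 9.83, a difference of −2.39 (SE 0.26, adjusted p = 0.00964). Replicate 3 was the lowest Igf1+/+ array at both, as it was at both Klf4 probe sets and at 2 of the 3 Klf6 probe sets, while at the third Klf6 probe set it was the highest. It was the lowest of its genotype at 38.0% of all bright probe sets. The matricellular factor Ccn1, formerly Cyr61, gave −2.43 (SE 0.09, adjusted p = 2.6e-05) and the nuclear receptor Nr4a1 gave −2.62. The other 8 that fell were Ier3 (adjusted p = 0.0665 in limma), Dusp1 (−1.61), Junb (−1.30), Atf3 (−1.17), Zfp36 (−0.89), Btg2 (−0.72), Jun (−0.70) and Ier2 (−0.59), and they include AP-1 subunits and negative regulators of signalling and of mRNA stability. At the brightest probe sets, the lowest Igf1+/+ array was replicate 3 also at Dusp1, Junb, Zfp36, Jun and Ier2. It was replicate 1 at Ccn1, Nr4a1, Atf3 and Btg2, as at Klf2, and replicate 2 at Ier3. The summed linear level of the list was 8299 to 9415 in Igf1-/- lungs and 18752 to 26122 in Igf1+/+ lungs. These arrays were already known to differ in such genes when the list was chosen, so the list is not independent evidence of its direction. The part of breathing before dissection in these values and in those of the Klf genes was not tested.

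**Figure D4:**
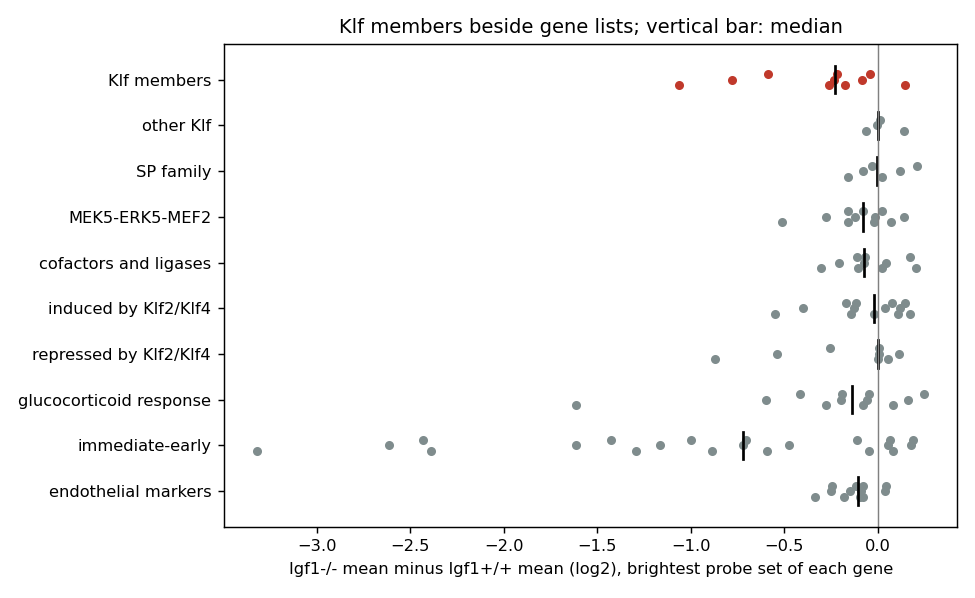
Each point is 1 gene at its brightest probe set, placed by the Igf1-/- mean minus the Igf1+/+ mean on the log2 scale, and vertical bars mark the median of each list. The Klf members have a median of −0.23 and the immediate-early genes one of −0.72, while the genes induced by Klf2 and Klf4 have one of −0.02.

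The 5 probe sets whose pattern over the 6 arrays was most like that of Klf2 were taken among 327 that spanned at least 1 log2 unit. They were those of Ccn1 (r = 0.99 at both), Nr4a1 (r = 0.98), Fos (r = 0.98) and Slc4a1 (r = 0.98), the anion exchanger of red cells. For Klf4 they were Ckmt1, Itgb6, Slc6a14, Junb and Zfp36, with r from 0.97 to 0.99, and for Klf6 they were Slc6a14, Ckmt1, F3, Sphk1 and Edil3, with r from 0.97 to 0.99. Slc6a14 and Ckmt1 stood in both of these sets of 5. Ccn1, Nr4a1, Fos, Junb and Zfp36 are on the immediate-early list, and the other genes named here are not. With 6 arrays in 2 genotypes, each of these correlations rests largely on the genotype difference. That difference was known when the members and the list were chosen, so the correlations are given as a description.

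Of 12 endothelial markers, 10 were lower and 2 higher with a median of −0.11, and 0 passed in limma. The 3 with an unadjusted p under 0.05 in limma were all lower. They were Icam2 and, named after their values were seen, Cdh5 (−0.24) and Vwf (−0.25). Cldn5, a tight junction protein, gave −0.18, and Icam2, an endothelial adhesion molecule, gave −0.34 (adjusted p = 0.349 in limma). Their summed linear level was 10191 to 12065 in Igf1-/- lungs and 11407 to 12968 in Igf1+/+ lungs, so the genotypes overlapped there.

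Of 6 measured markers of alveolar type I cells, all 6 were lower with a median of −0.32, and 2 fell, the water channel Aqp5 (−0.98, adjusted p = 0.0173 in limma) and Rtkn2 (−1.67, adjusted p = 0.0382 in limma). All 6 type I markers had an unadjusted p under 0.05 in limma. Of 7 measured type II markers, 1 was lower and 6 were higher with a median of 0.13 and 0 passed, with 4 at an unadjusted p under 0.05. The surfactant protein gene Sftpc, near the highest value of each array, gave 0.05 and the phosphate transporter gene Slc34a2 gave 0.09. The 4 with an unadjusted p under 0.05 in limma went in both directions. They were Sftpd (−0.42), Napsa (0.41), Sftpb (0.30) and Sftpa1 (0.25), named after their values were seen. Of 4 measured red cell markers, 2 were lower and 2 higher with a median of −0.39. The 2 lower ones fell, Slc4a1 (−1.64, adjusted p = 0.000147 in limma) and the heme synthesis enzyme Alas2 (−0.87, adjusted p = 0.0754 in limma). The other two, both dim, were Hba-a1 (0.12) and Epb42 (0.10, with genotypes that did not overlap), and neither passed. Of 8 myeloid markers, all 8 were higher with a median of 0.50, and Camp, an antimicrobial peptide of neutrophils, rose by 0.83 (adjusted p = 0.0271 in limma). Csf1r, the receptor of macrophage growth factor, gave 0.32 (adjusted p = 0.232 in limma), and S100a8, a calcium-binding protein of neutrophils, gave 0.63 (adjusted p = 0.110 in limma). Of the 8 myeloid markers, 6 had an unadjusted p under 0.05 in limma. Of 6 measured lymphocyte markers, 1 was lower and 5 were higher with a median of 0.11, and 0 passed, with 1 at an unadjusted p under 0.05. Cd3e, of the T cell receptor complex, gave 0.30 and Cd79b, of the B cell receptor, gave 0.15. Of 6 general epithelial markers, 3 were lower and 3 higher with a median of 0.00, and 0 passed in limma, with 2 at an unadjusted p under 0.05, where the cadherin Cdh1 gave −0.05 and the keratin Krt8 −0.17. Of 6 smooth muscle markers, 4 were lower and 2 higher with a median of −0.11, and 0 passed, with 1 at an unadjusted p under 0.05, where the actin Acta2 gave −0.16 and Tagln −0.17. Of 7 fibroblast markers, 2 were lower and 5 higher with a median of 0.04, and 0 passed, with 1 at an unadjusted p under 0.05, where the collagen Col3a1 gave 0.04 and the transcription factor Tcf21 −0.09. The part of these cell types in the Klf differences was not tested.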

How the data were processed

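Total RNA of mouse lungs at embryonic day 18.5 was hybridized by the authors to Affymetrix mouse expression arrays. The deposited log2 values were made by the authors with RMA, in a version not stated, over 12 arrays, 6 of lung and 6 of cochlea. The cochlear arrays were not analysed here and RMA was not repeated. RMA shares its normalization among arrays, which removes any difference in total RNA. No batch is named in the labels, and arrays hold no read depth, so their number limits the precision. Where replicates did not come from separate animals, p-values measure only the spread between these arrays.

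Of 22690 probe sets, 64 controls were left out. Of the remaining 22626, 20380 had 1 symbol in the platform annotation, 691 had several and 1555 had none, and 20351 were found in the RefSeq table of GRCm38.p6 by Entrez identifier. A model with genotype as its only term was fitted in limma 3.58.1 (R 4.3.3) to the 6 arrays, with empirical Bayes variances and Benjamini-Hochberg adjustment over all 22626, and was checked on simulated data. SAM, which the methods used, rests on regrouped samples and was not run. A list gene rose or fell where any of its probe sets had an adjusted p under 0.10. The smallest exact two-sided p of 3 arrays against 3 is 0.1, so no exact test of a single gene is given. Promoters and motif matches were read in Python 3.11.15. Proteins were not analysed here.

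The members and gene lists were chosen with earlier results of these data known. Named were all member probe sets, Igf1, Fos and Egr1, the list genes past 0.10 or, where fewer than 2 passed, the 2 with the highest mean, and the 5 probe sets most like Klf2, Klf4 and Klf6. Exceptions are stated. Alternatives were quantile normalization, centring, a filter on dim probe sets, a variance trend with robust estimates, array weights, the replicate number as a block, other thresholds, 1 probe set per gene and leaving out each array.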

Additional observations from a re-analysis of the deposited data

How the results depend on the processing

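The 27 member differences were recomputed under the alternatives, which gave 329 values. All 329 lay within 1 SD of replicates of the reported value. The dim filter, the variance trend, the replicate block and 1 probe set per gene leave a difference unchanged. Leaving out 1 of 3 arrays moves a genotype mean by less than 1 SD of that genotype. For these alternatives the result was fixed in advance and does not measure stability. The sign changed in 9, at probe sets not called. The count of member probe sets past an adjusted p of 0.10 was 3. It was 5 with dim probe sets left out, 5 with a variance trend and robust estimates, 6 with array weights, 6 at an adjusted p of 0.20, and 2 to 8 with 1 array left out, the 8 being without Igf1+/+ replicate 3. The Klf6 probe set 1427742_a_at passed the level with all 6 arrays. Among the fits with 1 array left out, it passed only without Igf1+/+ replicate 3. Without that array the Klf4 probe sets passed the level too. The count of member probe sets lower in Igf1-/- was 23, 21 to 23 with 1 array left out, and 9 of 10 with 1 probe set per gene, where fewer are tested. Pathway genes that fell numbered 15, and 8 to 24 with 1 array left out, the 24 being without Igf1+/+ replicate 3, while 0 rose in each of these fits. Cell type and tissue markers that fell numbered 4, 7 with array weights, and 2 to 5 with 1 array left out. Those that rose numbered 1, 2 with dim probe sets left out, 3 with the trend, 5 with array weights, 3 with 1 probe set per gene, 4 at 0.20, and 0 to 3 with 1 array left out. Arrays of the same replicate number did not vary together: the correlation of their deviations was −0.04, −0.23 and −0.14. Between arrays of unlike number it ran from −0.08 to 0.28, and a pairing in another order was not tested. With the replicate block, 5 member probe sets and 2 markers that rose passed, and 138 probe sets in all, against 126 without it. Over all probe sets, 204 passed with the trend, 628 with array weights, 710 without Igf1+/+ replicate 3, and 45 to 63 where 1 of the other 5 arrays was left out. The cause was not tested. Signal over background limits what the 5 dim member probe sets can show.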
